A study of Mus musculus with 4 samples.

Results

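The genes of fatty acid oxidation were followed as a set of 31 genes in regulatory T (Treg) cells of fat and spleen. They were chosen by name, as enzymes and carriers of acyl-CoA activation, the carnitine shuttle, mitochondrial and peroxisomal beta-oxidation and electron transfer, with 2 pyruvate dehydrogenase kinases. All 31 were found by symbol among the 23284 gene symbols measured. All 31 were also among the 16488 genes tested, although Acsl6 and Pdk4 passed the expression filter through the fat libraries alone. A mean level of at least 20 CPM (read counts relative to the size of the library, scaled as given under the processing) was reached by 28 of the 31.

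RNA was sequenced from Treg cells of epididymal white fat (eWAT), a visceral depot, and of spleen, the control tissue. The C57BL/6 mice were 12 to 13 months old, and were either PPARg-2KR or wild type (WT). PPARg-2KR denotes an altered PPARG, a lipid-sensing nuclear receptor of fat cells that is also present in fat Treg cells. The allele is written out no further in the labels, and neither the number of mice behind a library nor the sorting gate is given in the sources used here. The 4 groups, with 1 library each, were 2KR eWAT, WT eWAT, 2KR spleen and WT spleen.

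A long-chain fatty acid is first bound to coenzyme A by an acyl-CoA synthetase, then carried into the mitochondrion on carnitine. There, repeated rounds of dehydrogenation, hydration, a second dehydrogenation and thiolysis release acetyl-CoA, and the electrons pass through the electron transfer flavoprotein to the respiratory chain. Receptors of the PPAR family are known to activate several of these genes in liver, muscle and fat, and Treg cells have been described as users of fatty acids as fuel.

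The libraries held 8315569 reads in 2KR eWAT, 11186660 in WT eWAT, 15993889 in 2KR spleen and 13250590 in WT spleen. Pparg stood at 64.2 CPM in 2KR eWAT, 129.8 CPM in WT eWAT, 2.89 CPM in 2KR spleen and 5.74 CPM in WT spleen; because the allele changes the protein, these levels do not check the genotype labels. The Treg markers were present in every library, with Foxp3 between 804 and 1409 CPM and a summed level of the 6 markers between 4602 and 5933 CPM. The sum hides opposite changes: Ctla4 was higher in eWAT, Cd3e and Cd4 were lower, and 3 did not pass. Ctla4 had 1881 CPM in 2KR eWAT and 2424 CPM in WT eWAT, against 749 CPM in 2KR spleen and 776 CPM in WT spleen. Cd3e had 574 CPM in 2KR eWAT and 674 CPM in WT eWAT, against 1161 CPM in 2KR spleen and 1388 CPM in WT spleen. Markers of other cells were higher in eWAT than in spleen, among them 7 of 7 macrophage markers, 8 of 8 fibroblast and mesothelium markers, 7 of 8 dendritic and B cell markers and 5 of 6 endothelium markers. Of the adipocyte markers 3 of the 4 tested were higher and the other, Lipe, was lower. The adiponectin gene Adipoq had 0 reads in WT eWAT. By the same test, given below, 33.7% of all genes tested were higher in eWAT and 23.2% lower. Several markers were near 0 in spleen, such as Lum and Cav1 with 0 reads in both spleen libraries. Such markers entered the test through eWAT alone, so their calls are not read as support. The part of these other cells in the differences given here was not tested. In such bulk libraries fewer cells of a type and less RNA per cell cannot be told apart.

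Between tissues, the carnitine shuttle split. Cpt1a, whose product loads long-chain fatty acids onto carnitine at the outer mitochondrial membrane, and Crat, the acetyltransferase for short acyl groups, were higher in eWAT, while Cpt2, which takes the acyl group off carnitine inside, was lower. Acsl4 was also higher. Decr1, Pdk1, Acaa1a, Echs1, Acsl5, Etfa and Hadha were lower. In all, 4 of the 31 genes were higher and 8 lower, and 19 missed the threshold (edgeR quasi-likelihood test of 2 eWAT against 2 spleen libraries, Benjamini-Hochberg adjusted p under 0.05 over all genes tested). The fourth of the higher genes, Pdk4, entered the test through its eWAT reads alone, so its call is not read as support. Acsl6 entered in the same way and did not pass, and of the other 29 genes 3 were higher and 8 lower. Of all genes tested 33.7% were higher and 23.2% lower. Among those with a mean of 20 CPM or more, the level of 28 of the 31, it was 10.2% higher and 42.8% lower. The members' share of lower genes was under the 42.8% of genes of like level, a difference that was not tested.

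The median log2 fold change of eWAT over spleen was −0.20 over the 31 genes and 0.11 over all genes tested. Over the genes with a mean of 20 CPM or more it was −0.23 for the 28 members and −0.41 for all 7689. Where zero lies depends on the scaling. Scaling by total counts moved the log2 fold changes of the 7689 genes by 0.16, and refitting on genes at 10 CPM or more in 2 libraries moved them by 0.35. With these shifts the split became 5 higher and 6 lower of 31 by total counts, and 6 higher and 3 lower of 29 after the refit. Over all genes, total counts gave 5753 higher and 2934 lower of 16488. The refit gave 2015 higher and 1564 lower of 9610. The turn is thus not read as particular to the members. The members' median was −0.05 by total counts and turned to 0.14 after the refit. Cpt1a was higher, and Cpt2, Decr1 and Pdk1 were lower, under each of the 12 alternatives tried. These p-values measure only the spread between 4 libraries, which may be technical and which includes the genotype difference. In every fit that leaves out a library, 1 tissue holds a lone library, which is assumed to vary like the pair of the other tissue. A fit without WT eWAT thus sets the 2KR eWAT library alone against spleen, and its p-values carry no replicate error of eWAT.

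**Figure D1:**
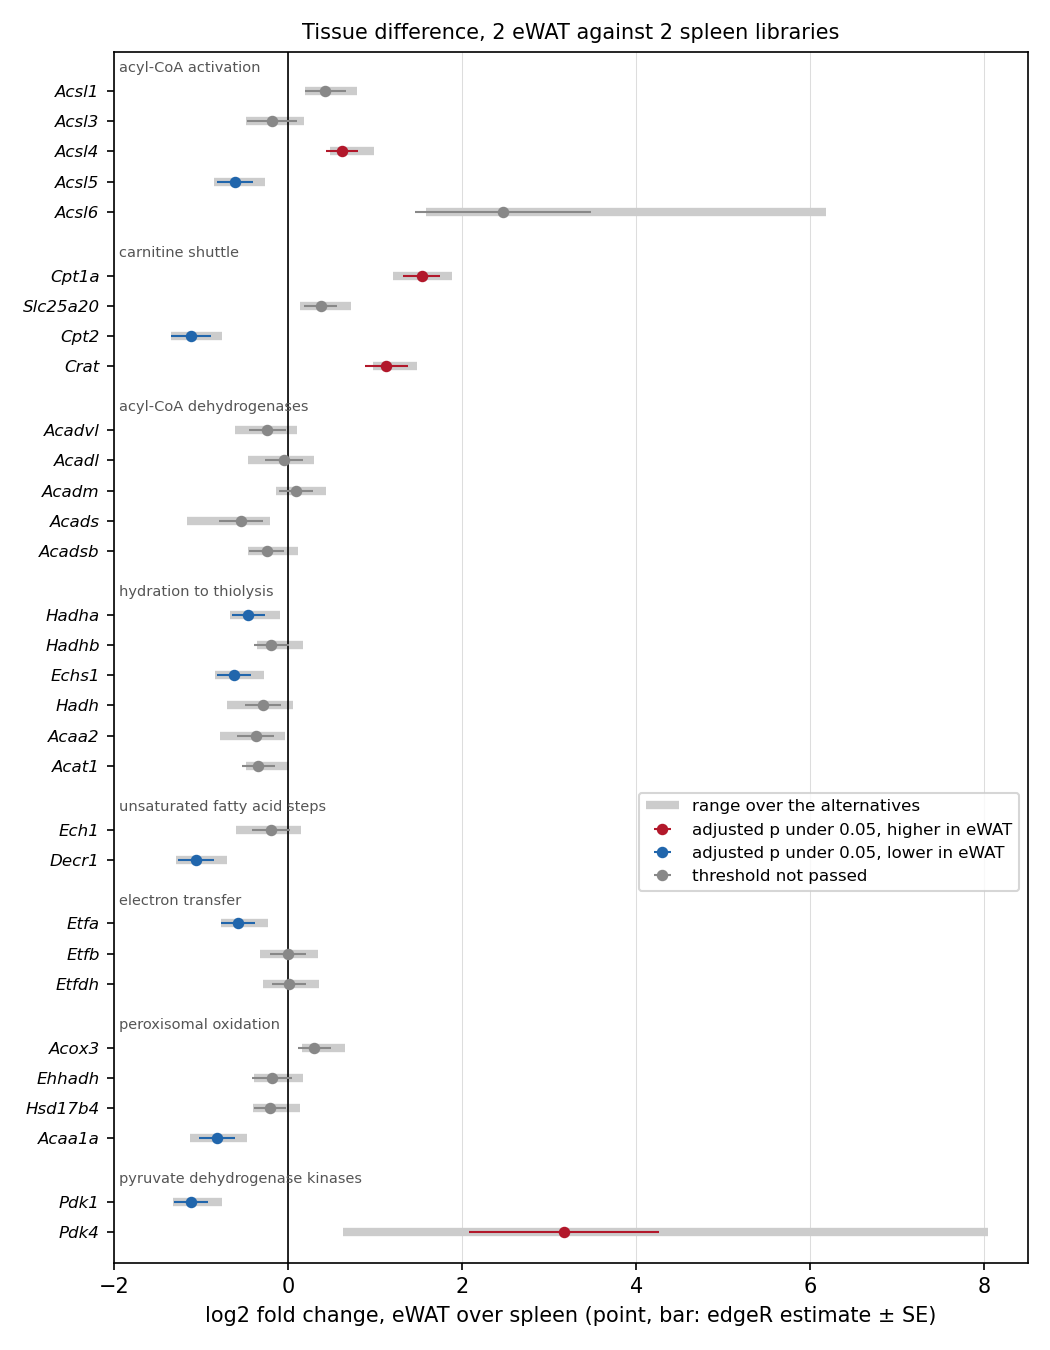
Tissue difference of each gene, grouped by role. The horizontal axis gives the log2 fold change of eWAT over spleen, points and thin bars show the edgeR estimate ± SE, and grey bands span the alternatives. Cpt1a and Crat lie to the right at 1.53 and 1.13, Cpt2 to the left at −1.12, and the widest bands belong to Acsl6 and Pdk4, with at most 10 and 44 reads in a library.

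Acyl-CoA synthetases of the ACSL family differ in their preferred fatty acids and their place in the cell. Per transcript length the mean level was highest for Acsl5, at 82.0 FPKM (fragments per kilobase of transcript, scaled to the library, from the authors' deposited table). It was 17.9 FPKM for Acsl4, 6.15 for Acsl1, 4.22 for Acsl3 and 0.11 for Acsl6. The 2 leading members moved in opposite directions between tissues.

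Acsl5 stood at 175 CPM in 2KR eWAT, 210.5 CPM in WT eWAT, 289 CPM in 2KR spleen and 302 CPM in WT spleen. Both eWAT values lay under both spleen values, with a log2 fold change of −0.61 (SE 0.21, edgeR adjusted p = 0.0214). The call was lost without 2KR spleen (−0.70, edgeR adjusted p = 0.19), without WT spleen (−0.63, edgeR adjusted p = 0.225) and in the refit at 10 CPM (−0.26, edgeR adjusted p = 0.199), within a range of 1.73e-05 to 0.225 over all settings. Acsl4, which prefers arachidonic acid, stood at 113 CPM in 2KR eWAT, 102 CPM in WT eWAT, 69.7 CPM in 2KR spleen and 70.3 CPM in WT spleen. It was higher in both eWAT libraries, with a log2 fold change of 0.62 (SE 0.18, edgeR adjusted p = 0.0113). That call was lost without 2KR spleen (0.56, edgeR adjusted p = 0.248), without WT spleen (0.58, edgeR adjusted p = 0.212) and in DESeq2 (0.48, adjusted p = 0.0652), within a range of 0.00222 to 0.248.

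The ratio of Acsl4 to Acsl5 CPM within a library, which no scaling changes, was 0.647 in 2KR eWAT, 0.486 in WT eWAT, 0.242 in 2KR spleen and 0.233 in WT spleen. Acsl1 (0.42, edgeR adjusted p = 0.134) and Acsl3 (−0.19, edgeR adjusted p = 0.601) did not pass. Acsl6, known mainly from brain and red cell precursors, had 7 reads in 2KR eWAT, 10 in WT eWAT, 4 in 2KR spleen and 0 in WT spleen, where 3 reads set a limit of 0.242 CPM. It entered the test through its eWAT reads alone and did not pass, so no fold change is read from it.

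Acsl4 (chromosome X, 138752536 to 138825078 in mm9) was deposited with 3 transcripts, whose levels the authors estimated with Cufflinks. The 5280-base transcript was at 12.9 FPKM in 2KR eWAT (deposited interval 11.5 to 14.2) and 5.53 FPKM in WT eWAT (4.74 to 6.33). In spleen it was at 6.06 FPKM in 2KR (5.40 to 6.71) and 4.56 FPKM in WT (3.91 to 5.21). It made up 49.3% of Acsl4 in 2KR eWAT, 28.1% in WT eWAT, 46.5% in 2KR spleen and 35.2% in WT spleen. The 4990-base transcript ran the other way between genotypes, at 8.62 FPKM in 2KR eWAT against 10.8 FPKM in WT eWAT, and at 3.79 FPKM in 2KR spleen against 4.91 FPKM in WT spleen. The 4987-base transcript, of nearly the same length, was at 4.59 FPKM in 2KR eWAT and 3.34 FPKM in WT eWAT. In spleen it was at 3.17 FPKM in 2KR and 3.50 FPKM in WT. How well these 2 transcripts can be told apart was not tested. These are model estimates from 1 library each, with no replicate check. Of the 31 genes 28 had 1 transcript in the files, and Acsl3 and Acsl6 were the others with several.

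**Figure D2:**
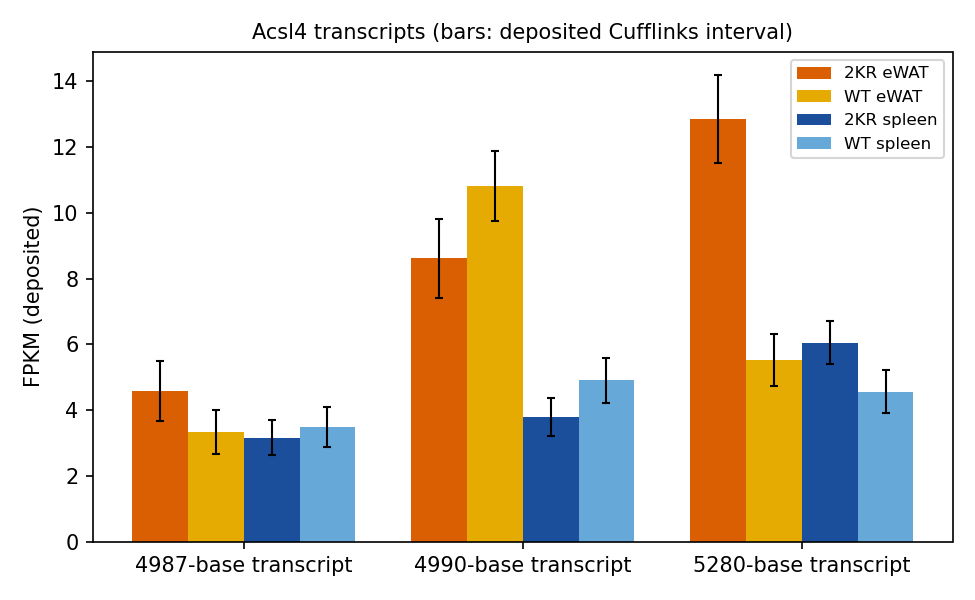
Deposited FPKM of the 3 Acsl4 transcripts in each library, with the authors' Cufflinks intervals as error bars. The 5280-base transcript in 2KR eWAT, at 12.9 FPKM, stands above its level of 5.53 FPKM in WT eWAT, and the 4990-base transcript is lower in 2KR than in WT in both tissues. The 4987-base transcript is at 4.59 FPKM in 2KR eWAT and 3.34 FPKM in WT eWAT.

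In the carnitine shuttle, Cpt1a (chromosome 19, 3323301 to 3385733 in mm9) stood at 204 CPM in 2KR eWAT, 272 CPM in WT eWAT, 86.6 CPM in 2KR spleen and 78.0 CPM in WT spleen. Every eWAT value was above every spleen value, 2.90-fold in the fit, with a log2 fold change of 1.53 (SE 0.21, edgeR adjusted p = 7.83e-05). Crat stood at 29.0 CPM in 2KR eWAT, 28.9 CPM in WT eWAT, 12.4 CPM in 2KR spleen and 14.1 CPM in WT spleen. The eWAT levels were level with each other and above spleen, with a log2 fold change of 1.13 (SE 0.25, edgeR adjusted p = 0.0021). Leaving out 2KR spleen gave 0.98 (edgeR adjusted p = 0.0508, in a range of 0.000358 to 0.0508).

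Cpt2 (chromosome 4, 107576587 to 107596194 in mm9) ran against them, at 16.6 CPM in 2KR eWAT, 19.8 CPM in WT eWAT, 36.3 CPM in 2KR spleen and 42.7 CPM in WT spleen. Its log2 fold change was −1.12 (SE 0.23, edgeR adjusted p = 0.00137). The ratio of Cpt1a to Cpt2 CPM was therefore 12.3 in 2KR eWAT and 13.8 in WT eWAT, against 2.38 in 2KR spleen and 1.83 in WT spleen. Slc25a20, the carrier that moves acylcarnitine across the inner membrane, stood at 71.5 CPM in 2KR eWAT, 85.7 CPM in WT eWAT, 55.5 CPM in 2KR spleen and 66.2 CPM in WT spleen. Its eWAT values lay above both spleen values, yet the log2 fold change of 0.37 (SE 0.19, edgeR adjusted p = 0.116) did not pass, and only 4 of 13 settings called it.

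The promoters of these carriers are shown because Cpt1a and Cpt2 moved in opposite directions between tissues. Each runs 5′ to 3′ from 250 bases before to 50 after the start annotated by RefSeq in GRCm38.p6. Capitals mark the letters of a match to AGGTCANAGGTCA, a direct repeat with 1 base between its parts of the kind PPAR and RXR pairs are known to bind, searched on both strands with up to 2 mismatches in 12 bases. Cpt1a is at chr19:3323051-3323350 on the plus strand, Slc25a20 at chr9:108661886-108662185 on the plus strand and Cpt2 at chr4:107923540-107923839 on the minus strand.
Cpt1a: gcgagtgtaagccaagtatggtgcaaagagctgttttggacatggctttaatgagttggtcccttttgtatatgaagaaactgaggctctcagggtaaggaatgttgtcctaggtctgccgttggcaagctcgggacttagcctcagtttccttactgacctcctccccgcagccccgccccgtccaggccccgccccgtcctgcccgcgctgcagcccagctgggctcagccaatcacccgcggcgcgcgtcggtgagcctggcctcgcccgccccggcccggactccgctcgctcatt
Slc25a20: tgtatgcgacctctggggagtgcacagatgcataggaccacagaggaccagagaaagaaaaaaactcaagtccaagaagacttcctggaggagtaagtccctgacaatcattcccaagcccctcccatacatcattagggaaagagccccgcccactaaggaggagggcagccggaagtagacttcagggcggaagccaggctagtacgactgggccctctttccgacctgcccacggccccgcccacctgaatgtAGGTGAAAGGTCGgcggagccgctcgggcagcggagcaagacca
Cpt2: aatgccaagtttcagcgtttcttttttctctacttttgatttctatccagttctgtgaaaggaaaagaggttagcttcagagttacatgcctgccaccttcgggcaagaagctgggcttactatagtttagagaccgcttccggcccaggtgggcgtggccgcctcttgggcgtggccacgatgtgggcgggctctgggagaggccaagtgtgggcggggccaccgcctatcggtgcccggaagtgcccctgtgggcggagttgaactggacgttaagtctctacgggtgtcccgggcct
The Slc25a20 match begins 6 bases after the start, and neither Cpt1a nor Cpt2 holds one in this window. Promoters of 26 of the 31 genes were read, 30 promoters in all. Of these 30, 3 (10%) hold such a match, against 3.86% of all 32851 promoters searched. The other 2 are AGGTCACGGGTCC in Echs1, 83 bases before the start, and TTACCTTTGCCCT in Etfa, 77 bases before it with the repeat on the other strand. TCAAGGTCA, the site of the estrogen-related receptors, was found on the other strand of Acsl6 alone (3.33% of the 30 promoters, against 0.423% of all). Members on a chromosome that was not used are left out of the 30, while the shares over all promoters were taken without that exclusion. A match is only a description of these letters. Echs1 and Etfa were lower in eWAT, and Slc25a20 did not pass.

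The acyl-CoA dehydrogenases take the first step of each round and are named for chain length. None of the 5 passed the tissue test. Acadvl and Acadl, for very long and long chains, were the most abundant per length, at a mean of 77.8 and 75.6 FPKM over the 4 libraries. Acadm, for medium chains, averaged 28.6 FPKM, Acads, for short chains, 25.5 FPKM and Acadsb, for short branched chains, 12.2 FPKM. Tissue log2 fold changes ran from −0.54 for Acads (SE 0.26, edgeR adjusted p = 0.0818) to 0.09 for Acadm (SE 0.19, edgeR adjusted p = 0.724). With the 2KR eWAT library alone against spleen the log2 fold change was −1.17 for Acads, −0.61 for Acadvl and −0.47 for Acadl. All 3 were called lower in that fit, whose spread comes from the spleen pair. Their 2KR eWAT value was the lowest of the 4.

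The later steps of the round are shared by the trifunctional protein, whose alpha and beta subunits are encoded by Hadha and Hadhb, and by the enzymes for shorter chains. Hadha stood at 58.0 CPM in 2KR eWAT, 48.5 CPM in WT eWAT, 72.1 CPM in 2KR spleen and 74.5 CPM in WT spleen. Both eWAT values lay under both spleen values, with a log2 fold change of −0.46 (SE 0.19, edgeR adjusted p = 0.0496), close to the threshold. The call was lost without WT eWAT (−0.44, edgeR adjusted p = 0.0513), without 2KR spleen (−0.55, edgeR adjusted p = 0.22), without WT spleen (−0.49, edgeR adjusted p = 0.262), and in 4 other settings, over a range of 0.00436 to 0.692.

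Hadhb stood at 35.9 CPM in 2KR eWAT, 31.5 CPM in WT eWAT, 38.6 CPM in 2KR spleen and 38.5 CPM in WT spleen. It kept the order of Hadha between tissues, but its log2 fold change of −0.19 (SE 0.20, edgeR adjusted p = 0.428) did not pass. Its counts looked low beside its FPKM, which was 62.5 in 2KR eWAT, 45.7 in WT eWAT, 58.3 in 2KR spleen and 55.5 in WT spleen. FPKM over CPM per kilobase came to 2.99 for Hadhb, against a median of 1.04 and a 95th percentile of 1.48 over 7689 genes, so its level depends on which table is read. The reason was not tested. The genes lie head to head on chromosome 5, Hadha at 30444844 to 30481520 and Hadhb at 30481862 to 30511123 in mm9, with 341 bases between them.

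The shared promoter of this pair is shown from the side of Hadhb, at chr5:30155003-30155302 on the plus strand of GRCm38.p6, from RefSeq. Of its 300 bases 228 are also in the Hadha promoter on the minus strand, and neither motif has a match in it.
Hadhb: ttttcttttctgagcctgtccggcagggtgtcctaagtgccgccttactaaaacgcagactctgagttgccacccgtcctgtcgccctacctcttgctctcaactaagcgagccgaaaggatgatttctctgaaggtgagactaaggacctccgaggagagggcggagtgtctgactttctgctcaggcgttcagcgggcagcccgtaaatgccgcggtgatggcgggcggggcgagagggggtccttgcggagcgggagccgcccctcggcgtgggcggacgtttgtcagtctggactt

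Echs1, the short-chain enoyl-CoA hydratase, stood at 45.3 CPM in 2KR eWAT, 53.2 CPM in WT eWAT, 69.2 CPM in 2KR spleen and 83.3 CPM in WT spleen. Its level fell in eWAT, by a log2 fold change of −0.63 (SE 0.20, edgeR adjusted p = 0.0142). That call was lost without 2KR spleen (−0.81, edgeR adjusted p = 0.0606), without WT spleen (−0.53, edgeR adjusted p = 0.213) and in the refit at 10 CPM (−0.28, edgeR adjusted p = 0.223), over a range of 0.000186 to 0.223. Hadh, the short-chain hydroxyacyl-CoA dehydrogenase, and the thiolases Acaa2 and Acat1 did not pass, with log2 fold changes of −0.29, −0.38 and −0.34. With the 2KR eWAT library alone against spleen they were −0.70, −0.79 and −0.49, and all 3 were called lower with the spread of the spleen pair.

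Double bonds in the chain need helper enzymes. Decr1, the dienoyl-CoA reductase for unsaturated fatty acids, was lower in eWAT, at 25.0 CPM in 2KR eWAT, 30.1 CPM in WT eWAT, 52.7 CPM in 2KR spleen and 62.3 CPM in WT spleen. The spleen level was 2.08-fold that of eWAT, and the log2 fold change was −1.06 (SE 0.21, edgeR adjusted p = 0.00111). Ech1, the dienoyl-CoA isomerase and one of the most abundant members at a mean of 158.7 FPKM, had a log2 fold change of −0.20 (edgeR adjusted p = 0.458). With the 2KR eWAT library alone against spleen it was −0.60, called lower with the spread of the spleen pair.

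Electrons leave through the flavoprotein of Etfa and Etfb and its dehydrogenase Etfdh. Etfa stood at 50.3 CPM in 2KR eWAT, 57.5 CPM in WT eWAT, 73.9 CPM in 2KR spleen and 87.5 CPM in WT spleen, a log2 fold change of −0.58 (SE 0.19, edgeR adjusted p = 0.0195). The call was lost without 2KR spleen (−0.75, edgeR adjusted p = 0.0848), without WT spleen (−0.50, edgeR adjusted p = 0.249), by total counts (−0.42, edgeR adjusted p = 0.0553) and in the refit at 10 CPM (−0.23, edgeR adjusted p = 0.299), over a range of 0.000533 to 0.299. Etfb, the other subunit, did not pass, with 87.0 CPM in 2KR eWAT, 118 CPM in WT eWAT, 90.8 CPM in 2KR spleen and 114 CPM in WT spleen and a log2 fold change under 0.01 in size (edgeR adjusted p = 1). Etfdh had a log2 fold change of 0.01 (edgeR adjusted p = 0.98). The Etfa minus Etfb difference in fold change was not tested. Etfb had the highest mean level per length of all members, at 164.8 FPKM.

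Among the peroxisomal enzymes, Acaa1a, the thiolase, fell in eWAT, to 47.2 CPM in 2KR eWAT, 62.1 CPM in WT eWAT, 88.1 CPM in 2KR spleen and 105 CPM in WT spleen. Its log2 fold change was −0.82 (SE 0.20, edgeR adjusted p = 0.0044). The call was lost without WT spleen (−0.73, edgeR adjusted p = 0.0842) and in the refit at 10 CPM (−0.47, edgeR adjusted p = 0.0602), over a range of 3.43e-07 to 0.0842. Acox3, an acyl-CoA oxidase for branched chains, and the bifunctional enzymes Ehhadh and Hsd17b4 did not pass, with log2 fold changes of 0.30, −0.19 and −0.21.

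The pyruvate dehydrogenase kinases restrain the entry of pyruvate into the mitochondrial cycle, which favours fat as fuel. Pdk1 stood at 60.4 CPM in 2KR eWAT, 66.8 CPM in WT eWAT, 122 CPM in 2KR spleen and 153 CPM in WT spleen. Both eWAT levels were lower, with a log2 fold change of −1.12 (SE 0.20, edgeR adjusted p = 0.000531). Pdk4, known as a target of PPAR and fasting in muscle and liver, had 44 reads in 2KR eWAT, 12 in WT eWAT, 0 in 2KR spleen and 8 in WT spleen, or 4.59, 1.11, 0 and 0.647 CPM. For 2KR spleen 3 reads set a limit of 0.197 CPM. Most of its reads lay in the 2KR eWAT library, and the other 3 libraries held 12 or fewer. Since it entered the test through its eWAT reads alone, its fitted change is not given, and the call was lost without 2KR eWAT, without 2KR spleen, with genotype as a further term and in both limma fits.

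**Figure D3:**
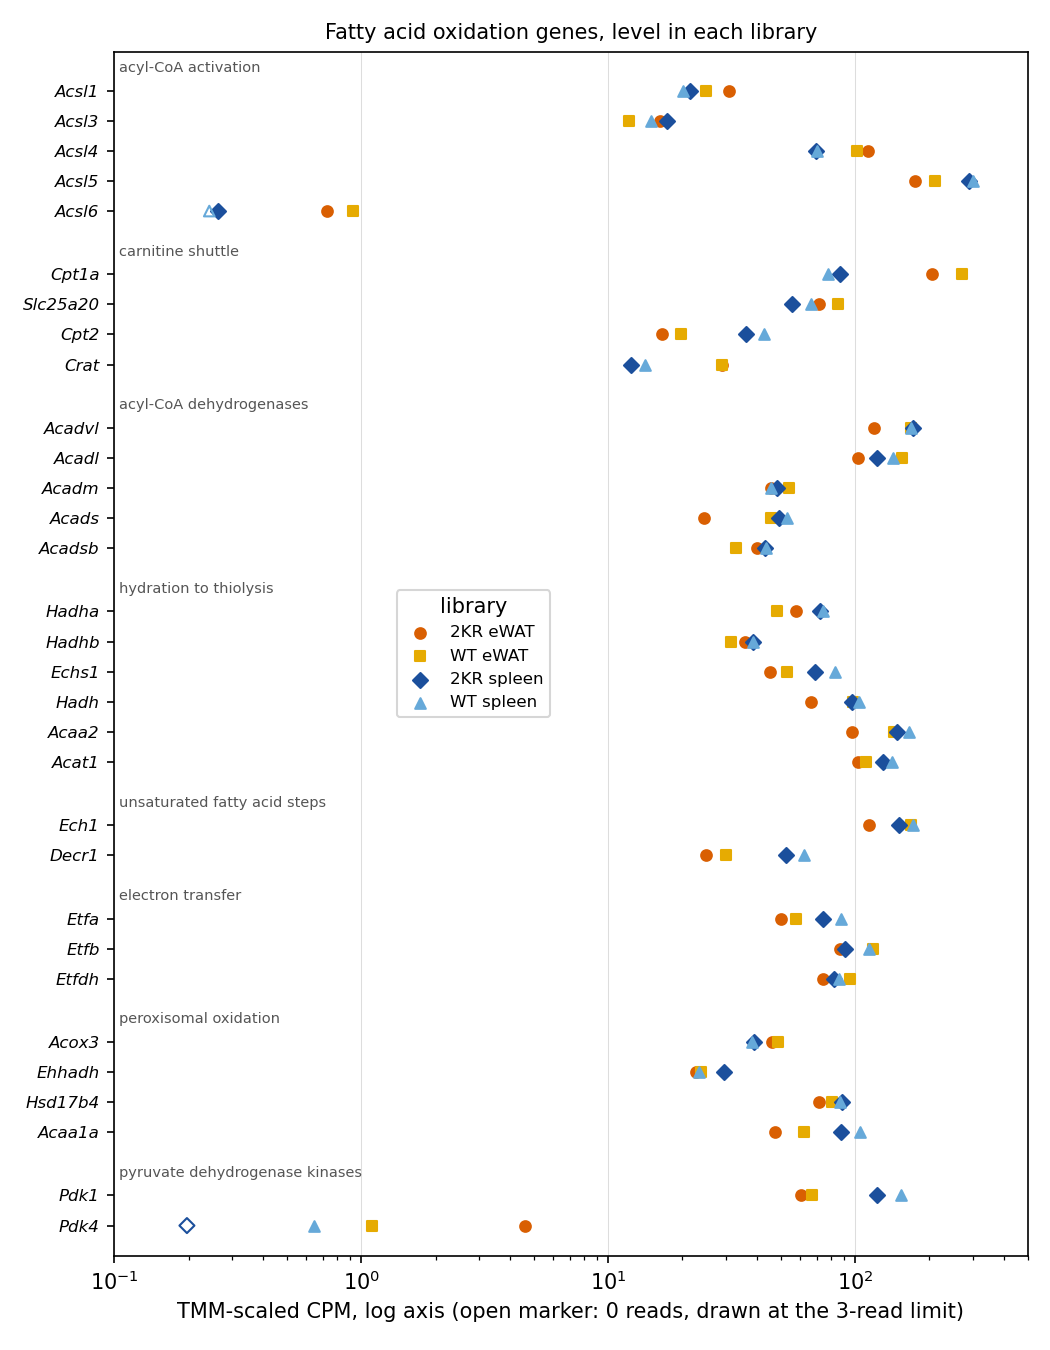
Level of each gene in the 4 libraries, in TMM-scaled CPM on a log axis, grouped by role. Colours and shapes give the library, and open markers show 0 reads, drawn at the limit that 3 reads set. CPM is not scaled for length, so values compare libraries within a gene; Cpt1a and Crat have both eWAT points to the right of spleen, Cpt2, Decr1 and Pdk1 to the left, and Acsl6 and Pdk4 stay under 5 CPM.

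The tissue difference could also be read within each genotype, from pairs that share no library. The log2 ratio of eWAT over spleen had the same sign in 2KR and in WT for 25 of the 31 genes (Spearman rho 0.85 across genes, which are not independent). The 31 include Acsl6 and Pdk4, and the share of all genes with the same sign was not counted. For Cpt1a the log2 ratio was 1.24 in 2KR and 1.8 in WT, for Crat 1.21 in 2KR and 1.02 in WT. For Cpt2 it was −1.12 in 2KR and −1.10 in WT. The median over the 28 members with a mean of 20 CPM or more was −0.33 in 2KR and −0.10 in WT. Over all 7689 genes of that level it was −0.50 in 2KR and −0.33 in WT.

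Between genotypes, a difference shared by both tissues was not called for any of the 31 genes, with 0 higher and 0 lower in 2KR (edgeR quasi-likelihood test, tissue in the model, 1 residual degree of freedom; 0.0667% of all genes were called). DESeq2 also called 0. At an unadjusted p under 0.05 there were 3 of the 31, against 4.71% of all genes. They were Acads (log2 fold change −0.50, SE 0.20, edgeR adjusted p = 0.966), Acadl (−0.40, SE 0.19) and Etfb (−0.38, SE 0.18), with an adjusted p of 1 for both.

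Within eWAT, the 2KR library set against the WT library had less Acads, Acadl and Acadvl and more Hadha, as values without a replicate check. Ratios are given for the 29 genes that reached 5 CPM in a library. Their 95% exact intervals hold counting error alone, as reads are no independent molecules. Of these 29, 2 were at least 1.5-fold lower in 2KR eWAT, a log2 ratio beyond 0.585 in size, and 0 were at least 1.5-fold higher. Over all 12364 genes at that level 10% were lower and 15.0% higher by that fold. Among genes with a mean of 20 CPM or more 10.5% were lower. A count of 2 in 29 is near that background.

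Acads (chromosome 5, 115560308 to 115569322 in mm9) stood at 24.4 CPM in 2KR eWAT and 45.7 CPM in WT eWAT, a log2 ratio of −0.90 (−1.14 to −0.68). In spleen it was at 49.1 CPM in 2KR and 53.3 CPM in WT, a log2 ratio of −0.12 (−0.27 to 0.04). The 2KR eWAT library was the low one of the 4. The ratio of Acads to Acadm CPM, free of scaling, was 0.532 in 2KR eWAT, 0.846 in WT eWAT, 1.01 in 2KR spleen and 1.17 in WT spleen. Acads stayed at least 1.5-fold lower in all 7 settings, from −0.90 to −0.59.

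Acadl stood at 103 CPM in 2KR eWAT and 155 CPM in WT eWAT, a log2 ratio of −0.59 (−0.71 to −0.48), and at 123 CPM in 2KR spleen and 143 CPM in WT spleen (−0.22, −0.31 to −0.12). It was past 1.5-fold in 3 of 7 settings, with a smallest difference of −0.33. Acaa2 at −0.576, Hadh at −0.57, Ech1 at −0.56 and Acadvl at −0.50 lay just inside the fold. Of the 29 intervals in eWAT, 17 lay below 0 and 5 above it. Of all 12364 genes at 5 CPM, 37.3% had an interval below 0 and 25.4% above it, and of those with a mean of 20 CPM or more 51.7% lay below and 16.2% above. The members' intervals above 0 belonged to Acsl3 (0.41), Acsl1 (0.31), Acadsb (0.28), Hadha (0.26) and Acsl4 (0.15).

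Hadha, at 0.26 (0.08 to 0.43), was thus higher in 2KR eWAT, with Hadhb at 0.18 (−0.03 to 0.41), while Hadh, the enzyme of the same step for shorter chains, was lower, at 66.2 CPM in 2KR eWAT and 98.4 CPM in WT eWAT. The ratio of Hadha to Hadh CPM was 0.876 in 2KR eWAT and 0.492 in WT eWAT, against 0.739 in 2KR spleen and 0.718 in WT spleen. By role, the median log2 ratio in eWAT was −0.50 for the 5 dehydrogenases (−0.24 by total counts), −0.37 for the 3 electron transfer genes (−0.11) and 0.23 for the 4 synthetases at 5 CPM (0.49). For the 4 shuttle genes it was −0.26, for the 6 genes of hydration to thiolysis −0.16 and for the 4 peroxisomal genes −0.13, and each of these turned above 0 by total counts.

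The median over the 29 genes was −0.23 in eWAT, against −0.07 over all 12364 genes, but it turned to 0.02 both by total counts and from FPKM. Total counts shift the eWAT ratios of the 7689 genes by 0.26. Under the settings tried, 12 of the 29 genes stayed below 0 in eWAT, 7 stayed above it and 10 changed sign. Hadha, Hadhb, Acsl1, Acsl3, Acsl4, Acadsb and Crat were the 7, and the 12 included Cpt1a, Acads, Acadl, Acadvl, Hadh, Acaa2 and Ech1.

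**Figure D4:**
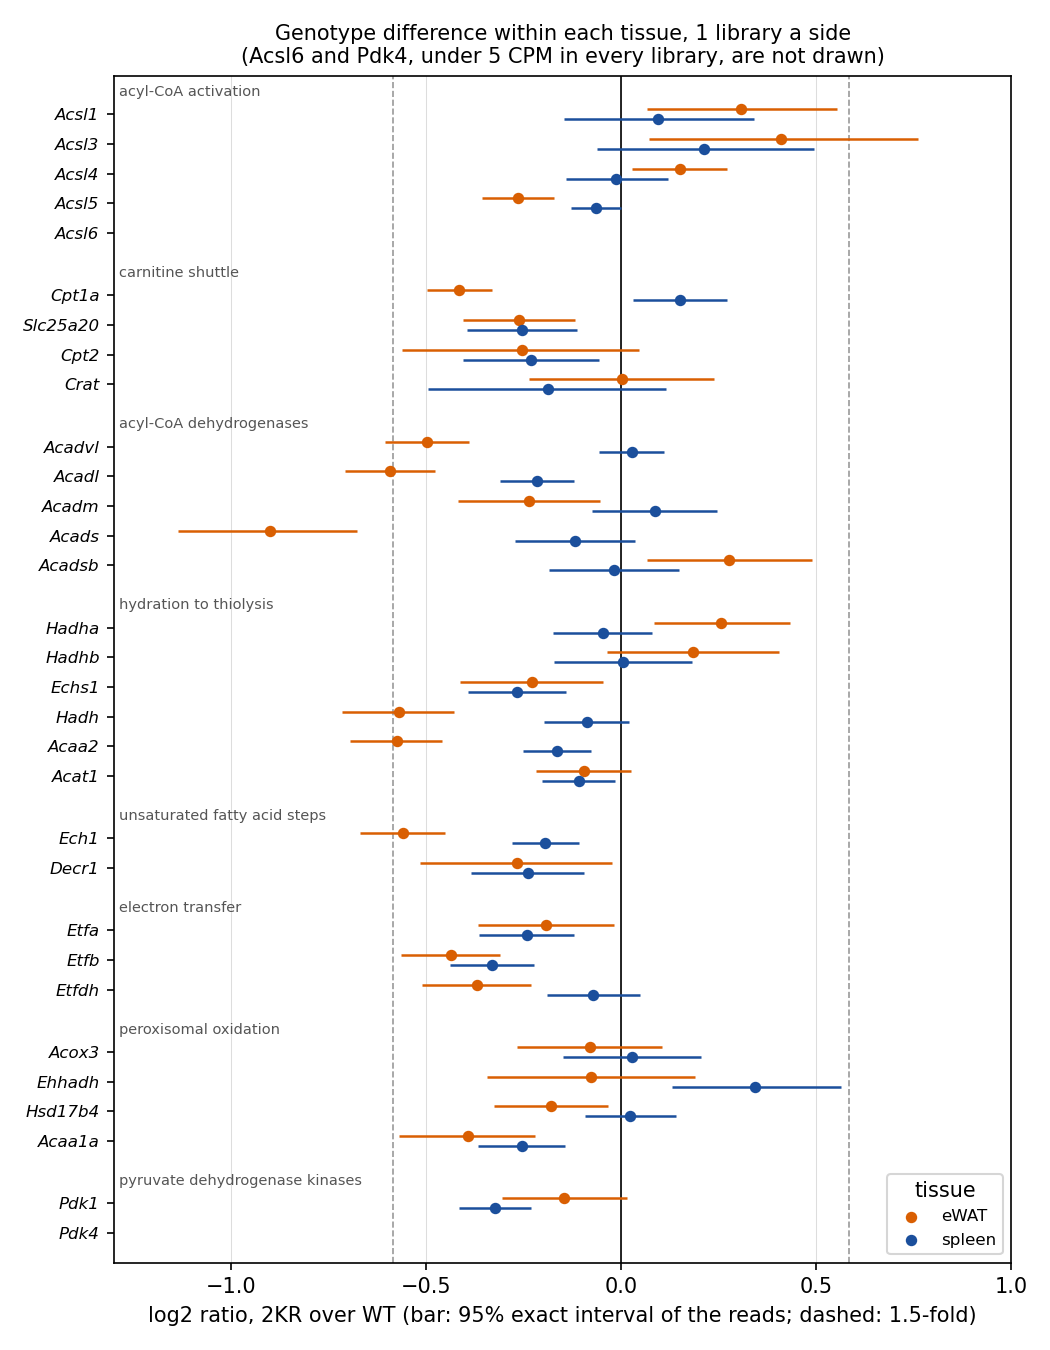
Log2 ratio of 2KR over WT within eWAT and within spleen for the 29 genes at 5 CPM or more, with 95% exact intervals of the reads as bars and dashed lines at 1.5-fold. Acads at −0.90 is the farthest point in eWAT, with Acadl at −0.59 on the same side, and every spleen point lies between −0.33 and 0.34.

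In spleen 0 of the 29 genes passed 1.5-fold in either direction, where 3.07% of all genes were higher and 11.7% lower in 2KR. The log2 ratios ran from −0.33 for Etfb to 0.34 for Ehhadh, with a median of −0.09, against −0.07 over all genes. Of the intervals 13 lay below 0 and 2 above it, Cpt1a and Ehhadh, where 30.0% of all genes at 5 CPM lay below and 18.3% above, and 31.4% and 24.6% of those with a mean of 20 CPM or more. The sign was the same in eWAT and spleen for 19 of the 29 genes (Spearman rho 0.41 across genes), a share that was not counted over all genes.

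Markers of other cells also differed between the eWAT libraries. Dendritic and B cell markers summed to 12000 CPM in 2KR eWAT against 6578 CPM in WT eWAT, with 610 CPM in 2KR spleen and 882 CPM in WT spleen, and 7 of 7 at 5 CPM were at least 1.5-fold higher in 2KR eWAT. Fibroblast and mesothelium markers summed to 231 CPM in 2KR eWAT and 546 CPM in WT eWAT, against 4.13 CPM in 2KR spleen and 7.52 CPM in WT spleen, and 7 of 8 were at least 1.5-fold lower in 2KR eWAT. Macrophage markers summed to 1651 CPM in 2KR eWAT and 1308 CPM in WT eWAT, against 72.8 CPM in 2KR spleen and 108 CPM in WT spleen. Endothelium markers summed to 283 CPM in 2KR eWAT and 171 CPM in WT eWAT, against 192 CPM in 2KR spleen and 175 CPM in WT spleen, and adipocyte markers to 48.3 CPM in 2KR eWAT and 32.7 CPM in WT eWAT, against 30.6 CPM in 2KR spleen and 37.3 CPM in WT spleen. The spleen sums were nearly all Pecam1 (191 CPM in 2KR spleen and 172 CPM in WT spleen) and Lipe (28.5 CPM in 2KR spleen and 33.9 CPM in WT spleen). The other 5 endothelium markers summed to 169.9 CPM in 2KR eWAT and 107 CPM in WT eWAT, against 1.44 CPM in 2KR spleen and 2.91 CPM in WT spleen. The other 7 adipocyte markers summed to 25.96 CPM in 2KR eWAT and 17.5 CPM in WT eWAT, against 2.099 CPM in 2KR spleen and 3.39 CPM in WT spleen. The Treg markers summed to 4602 CPM in 2KR eWAT and 5933 CPM in WT eWAT, with 5020 CPM in 2KR spleen and 5500 CPM in WT spleen. Of these 6, Il2ra was at least 1.5-fold lower in 2KR eWAT (log2 ratio −0.61), with Foxp3 at −0.53. Ikzf2 alone was higher, at 0.16. The part of these cell types in the genotype ratios was not tested.

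The genotype ratios also moved with transcript length. Across the 29 genes the Spearman rho of the eWAT log2 ratio with length was 0.63, and 0.48 in spleen. Over all 7689 genes with a mean of 20 CPM or more it was 0.29 in eWAT and 0.45 in spleen. These genes share 1 pair of libraries in each tissue, so the values describe those pairs. In eWAT the median log2 ratio of all such genes was −0.33 under 1500 bases, −0.23 from 1500 bases, −0.17 from 2500 bases and −0.04 from 4000 bases. The members in those classes had medians of −0.33, −0.39, −0.08 and −0.07. Acads, of 1837 bases, lay farther down than its class. The tissue log2 fold changes also rose with length (Spearman rho 0.30 over the 31 members, 0.28 over the 7689 genes). Over the 7689 genes their medians were −0.67 under 1500 bases, −0.53 from 1500, −0.41 from 2500 and −0.19 from 4000 bases. Cpt1a (4301 bases), Crat (4393) and Acsl4 (5280) are in the longest class, as is Pdk1 (5137), which was lower in eWAT. The part of length in the genotype ratios and tissue changes was not tested further.

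**Figure D5:**
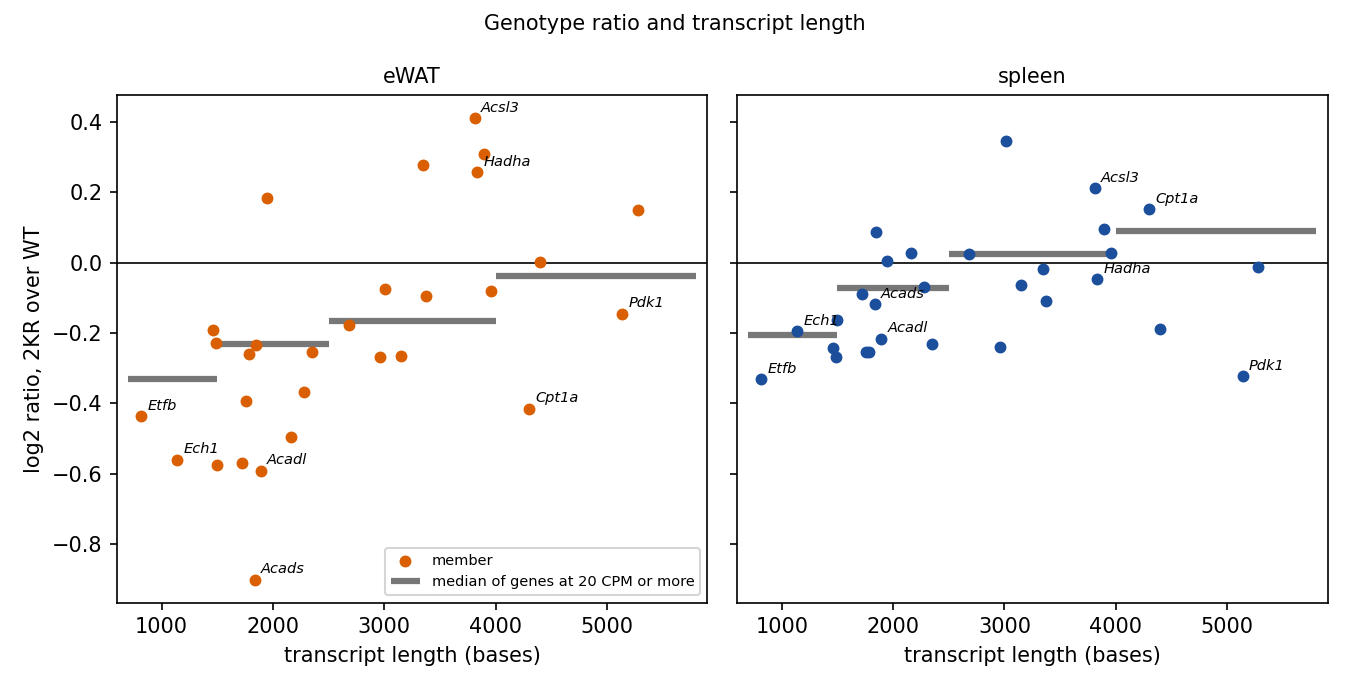
Log2 ratio of 2KR over WT against transcript length in bases, in eWAT (left) and spleen (right). Points are the 29 genes and grey bars the median of all genes with a mean of 20 CPM or more in 4 length classes; in eWAT the bars run from −0.33 for the shortest to −0.04 for the longest class, and Acads at −0.90 lies under its bar at −0.23.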

How the data were processed

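The 4 libraries were grouped by the tissue and genotype labels. The members and gene lists were chosen with earlier results of these data known. Read counts per gene symbol were deposited by the authors as whole numbers without scaling. Per the deposited readme, 100 bp reads went through bcl2fastq 1.8.4 and Tophat 2.1.0 (mm9, 4 mismatches, at most 10 hits); mm8 is also named in the submitters' processing notes. How reads were counted, with which tool, strand setting and rule for repeated hits, is not given in the sources used here; members with near-identical copies elsewhere in the genome are uncertain. FPKM values and their intervals, per gene and transcript, came from the authors' Cufflinks 2.0.2 run, per the readme.

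Genes passing edgeR's filterByExpr (16488) were scaled with trimmed mean of M-values (TMM) factors of 1.159, 0.968, 0.953 and 0.934 for 2KR eWAT, WT eWAT, 2KR spleen and WT spleen, and tested with the quasi-likelihood test in edgeR 4.0.16 (R 4.3.3). The SE is the log2 fold change over the square root of the F statistic. The common coefficient of variation was 0.221 for tissue (2 residual degrees of freedom) and 0.234 for genotype (1). Genotype ratios within a tissue, with 1 library a side, are log2 ratios of CPM with a prior count of 2, for genes at 5 CPM or more in 1 library, with exact conditional binomial intervals of 95% and no test. A count of 0 was limited by 3 reads, which is 0.197 to 0.313 CPM by library. The steps were run on simulated counts with a coefficient of variation of 0.2, under the fitted values. Of 100 genes changed by a log2 of 1 the tissue test recovered 35 and the genotype test 33. For a log2 of 2 they recovered 97 and 96 of 100. Genes that missed the threshold may thus still differ.

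Alternatives were total counts, relative log expression, no filter, 10 CPM in 2 libraries, DESeq2 1.42.0, genotype as a term, limma 3.58.1 on log2(FPKM + 1) or log2(FPKM + 0.1), and leaving out each library. Ratios were repeated with a prior of 0.5, at 20 CPM, and from FPKM + 1. TMM over genes at 10 CPM for the ratios, and the shares at a mean of 20 CPM, were chosen after seeing the data.

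Members were given their values in every library where they passed a test, differed by 1.5-fold between genotypes, or belonged to the shuttle, the trifunctional protein or the kinases. Of each list, up to 4 genes with the largest tissue changes past the threshold and those 1.5-fold different in eWAT are named. Some genes that this rule would name are not reported here. Other members given single values, and the ratios between genes, were chosen after their values were seen. RefSeq promoters (GRCm38.p6) were read for 26 members, and the rest were not analysed here. Files' coordinates are mm9, counted from 1. Python 3.11.15, numpy 2.4.6, pandas 2.3.3, scipy 1.17.1 and matplotlib 3.10.9 served the other steps.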

Additional observations from a re-analysis of the deposited data

Results flagged for a closer look

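Of the 29 genes at 5 CPM or more, Cpt1a had genotype ratios of opposite sign in the 2 tissues, each with a counting interval off 0. The difference was not tested, since each tissue held 1 library of each genotype. Cpt1a was lower in 2KR eWAT (log2 ratio of 2KR over WT −0.41) and higher in 2KR spleen (0.15), with the same sign in all 7 settings. Of all 12364 genes at 5 CPM, 37.3% had an eWAT interval below 0 and 18.3% a spleen interval above 0. Among those with a mean of 20 CPM or more it was 51.7% and 24.6%. The share of all genes with both was not counted, so the pattern is not called particular to Cpt1a. Pdk4 lay under 5 CPM, with 44 reads in 2KR eWAT and 12 in WT eWAT, against 0 in 2KR spleen and 8 in WT spleen. No ratio is given for Pdk4.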

How the results depend on the processing

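Over the 12 tissue alternatives, 291 of 366 values of single members kept their direction and their side of the threshold or, untested ones, their size; 28 were no longer past the threshold, 16 newly passed it and 31 moved, and 0 called values changed sign. The main counts were 4 higher and 8 lower, with a median of −0.20. Refitting on genes at 10 CPM in 2 libraries, which kept 29 of the members, gave 6 higher, 3 lower and a median of 0.14. Leaving out each library in turn gave 2 to 4 higher, 3 to 14 lower and medians of −0.42 to −0.19; the 14 came without WT eWAT, 2 higher and 4 lower came without 2KR spleen, and 3 lower without WT spleen. For genotype in eWAT, against 0 higher, 2 lower and a median of −0.23, total counts gave 1 higher (Acsl3), 1 lower and a median of 0.023. FPKM + 1 gave 1 lower and a median of 0.019, relative log expression gave 1 lower, and TMM over genes at 10 CPM, added after seeing the data, gave 1 lower. The spleen counts stayed at 0, and the common genotype calls at 0, in each alternative run. Of 346 genotype ratios 282 moved by less than their interval and 64 by more. The cause of these changes was not tested. The labels give no replicate numbers; the tissue fit with genotype as a further term, which sets the libraries of a genotype beside each other, gave 3 higher and 9 lower, with Pdk4 lost and Acads newly called (−0.61, edgeR adjusted p = 0.0187, in a range of 3.55e-06 to 0.539). Of all 16488 genes tested 5555 were higher and 3832 lower, against 2015 and 1564 of 9610 in the refit at 10 CPM. Of 15008 genes, limma called 2750 higher and 2979 lower at a pseudocount of 1, and 3359 and 3107 at 0.1. The common genotype effect called 11 genes, against 21 by total counts, 51 with no filter and 2 in DESeq2. Depth limits Acsl6 and Pdk4, with at most 10 and 44 reads in a library.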

Other observations

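Other genes of fat oxidation, in lists drawn from textbook pathways, were mixed between tissues. Of 22 other mitochondrial oxidation genes tested, 12 were lower in eWAT and 2 higher (edgeR adjusted p under 0.05, over all genes tested), with a median log2 fold change of −0.66. Of all genes tested 23.2% were lower and 33.7% higher, and among those with a mean of 20 CPM or more 42.8% were lower and 10.2% higher; the counts of all the lists below stand beside these shares, and none is called particular to its list. The filter asked for reads in 2 libraries, so genes near 0 in spleen entered through eWAT alone. Among them are Slc27a3, with 3 reads in each spleen library, and Abcd2, Acot4, Acacb and Ppara, with at most 10. Their calls and fold changes are not read as support, though the list counts include them. Slc22a5, the carnitine importer of the cell surface, was at 35.0 CPM in 2KR eWAT and 24.5 CPM in WT eWAT, against 75.0 CPM in 2KR spleen and 73.7 CPM in WT spleen, a log2 fold change of −1.32. Hsd17b10 was at −1.02, while Cpt1c (1.59) and Echdc2 (1.98) were the 2 higher. Of 18 peroxisomal genes 2 were higher and 3 lower, among them Abcd2, a transporter of very long chains, at 3.57, Amacr at −1.0 and Phyh at −0.62. Among ketone body genes Bdh1 (−1.57) and Oxct1 (−0.64) were lower. Of 20 activation and thioesterase genes 7 were higher and 4 lower; of those at 5 CPM in a library the farthest from 0 were Slc27a3 at 6.34, Acot4 at 3.01, Acsf2 at −1.61 and Acot13 at −1.21.

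Malonyl-CoA, the product of the acetyl-CoA carboxylases, inhibits CPT1, and AMP kinase restrains those enzymes. In that list and the pyruvate gate, 5 of 18 genes were higher in eWAT and 5 lower. Acacb was at 3.47, Prkaa2 and Prkab2, subunits of AMP kinase, at 2.18 and 1.89, and Prkab1, the other beta subunit, at −1.21. Prkab1 stood at 54.9 CPM in 2KR eWAT, 57.8 CPM in WT eWAT and 131 CPM in both spleen libraries, and Prkab2 at 22.5 CPM in 2KR eWAT and 14.6 CPM in WT eWAT, against 5.12 CPM in 2KR spleen and 4.85 CPM in WT spleen. Of 21 regulators 7 were higher and 3 lower, among them Pparg (4.51), Ppara (3.48), Ppargc1a (2.08) and Foxo1 (−1.67). Ppara was at 6.57 CPM in 2KR eWAT and 4.53 CPM in WT eWAT, against 0.197 CPM in 2KR spleen and 0.808 CPM in WT spleen. With at most 10 reads in a spleen library, Acacb and Ppara entered the test through eWAT alone, so their calls are not read as support.

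Within eWAT, several of these genes differed by at least 1.5-fold between the genotypes, as values of 1 library a side. Over all 12364 genes at 5 CPM, 10% were lower and 15.0% higher in 2KR eWAT by that fold. Acot7, an acyl-CoA thioesterase, was at 176 CPM in 2KR eWAT and 379 CPM in WT eWAT (log2 ratio −1.10), and Mlycd, which removes malonyl-CoA, at 21.6 CPM in 2KR eWAT and 37.5 CPM in WT eWAT (−0.79). Acaca, which makes it, was at 16.99 CPM in 2KR eWAT and 11.1 CPM in WT eWAT (0.61). Of the other activation, thioesterase and gate genes, Acot4 (1.33), Slc27a3 (0.97), Pdp2 (0.85), Acot2 (0.75) and Prkab2 (0.62) were higher, and Acss2 (−0.77), Acsf2 (−0.66) and Acot13 (−0.62) lower. In the mitochondrial and peroxisomal lists Gcdh (1.05), Abcd2 (0.92) and Pecr (0.61) were higher and Hibch (−0.70) and Echdc2 (−0.65) lower. Of the 19 regulators at 5 CPM, 7 were lower besides 1 higher, Ppargc1a at 1.17. Among the lower were Pparg at −1.01, Esrra at −0.85, Sirt5 at −0.84, Rxrb at −0.79, Nrip1 at −0.73 and Tfeb at −0.66. Scaling by total counts adds about 0.26 to each of these eWAT ratios.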
